A study of Mus musculus with 2 samples.

Results

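The miR-135 family of the mouse comprised 3 microRNA (miRNA) genes, Mir135a-1, Mir135a-2 and Mir135b, of 1973 miRNA genes in the count tables. They were chosen by name, as the genes annotated under these symbols in GENCODE on mm10, and their counts in these libraries were known when they were chosen, so their levels are given as a description, with no test. The libraries held small RNA (below 30 bases, per the labels) from the neural tube of newborn B6NCrl mice (postnatal, age 0 days), each from a single neural tube of pup 2 or pup 1 of 1 dam. There was 1 group of 2 littermates with no treatment and no altered gene named in the labels, which give no sex for either pup. The spread between the pups is that of 2 libraries from 1 litter.

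MicroRNAs are cut from a hairpin precursor, whose arms (5p and 3p) can each give a mature miRNA, and they lower the output of mRNAs that pair with the seed, bases 2 to 8 of the miRNA. The miR-135 family has been studied in the mouse in midbrain development, where miR-135a restrains Lmx1b and Wnt signalling, in serotonin neurons, where it acts on the serotonin transporter Slc6a4 and the receptor Htr1a, and in axon growth, where it acts on Klf4. In bone-forming cells miR-135 acts on Smad5 and Runx2.

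The mature sequences of the family from RefSeq (GRCm38.p6, the same coordinates as mm10) are shown because they decide which reads can be placed at 1 gene. Both Mir135a genes make the same 5p arm, while each of the 3 genes has a 3p arm of its own; capitals mark the seed.
miR-135a-5p (from Mir135a-1 and from Mir135a-2): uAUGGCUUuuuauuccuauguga
miR-135a-1-3p: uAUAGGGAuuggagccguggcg
miR-135a-2-3p: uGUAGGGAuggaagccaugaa
miR-135b-3p: aUGUAGGGcuaaaagccauggg
The 5p arm of Mir135b is miR-135b-5p. The letters of the miR-135a-5p seed, AUGGCUU, occurred in all 3 precursors of the family and in 8 of the 1005 precursors searched (0.796%), on the strand of the precursor. The 3p seeds all differed from each other. The letters of the miR-135b-3p seed, UGUAGGG, also occurred in the Mir135a-2 precursor, where they start miR-135a-2-3p, shifted by 1 base from its own seed.

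The precursors of the Mir135a genes show how far the shared part reaches; capitals mark the longest stretch that they have in common.
Mir135a-1: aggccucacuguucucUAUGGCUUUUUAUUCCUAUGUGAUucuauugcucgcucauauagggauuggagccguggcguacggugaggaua
Mir135a-2: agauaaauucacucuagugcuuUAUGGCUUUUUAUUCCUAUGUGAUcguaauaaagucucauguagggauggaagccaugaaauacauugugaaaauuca
This stretch was 24 bases long, at bases 17 to 40 of Mir135a-1 and bases 23 to 46 of Mir135a-2 (counted from the 5′ end of each precursor). It held all 23 bases of miR-135a-5p and 1 base after it. A read lying wholly within it fits both genes and belongs to the class of reads that the tables leave out of gene counts. Of the stretches of 22 bases, 3 of 69 in Mir135a-1 and 3 of 79 in Mir135a-2 were in the other gene's precursor, and 0 of 76 in Mir135b were in any other precursor. The longest exact stretch that Mir135b had in common with Mir135a-1 was 14 bases, and with Mir135a-2 13 bases.

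**Figure D1:**
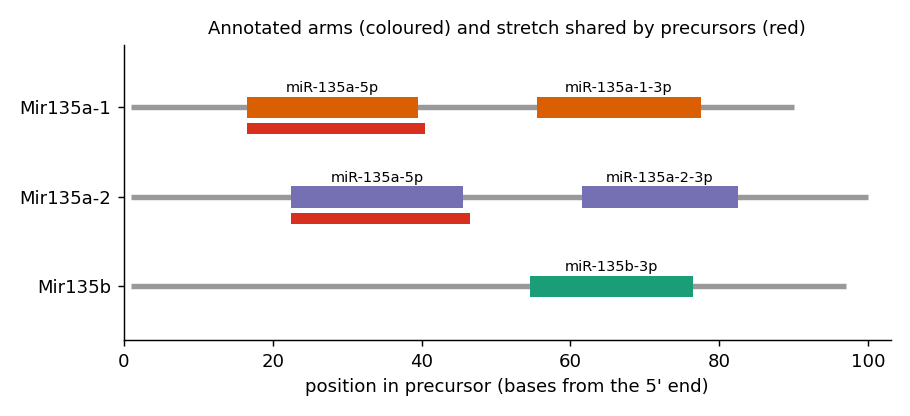
Position of the mature arms listed in the RefSeq table (coloured boxes) along the precursors of the miR-135 genes (grey lines), in bases from the 5′ end. Red bars mark the 24-base stretch that Mir135a-1 and Mir135a-2 have in common, which covers miR-135a-5p in both and reaches neither 3p arm.

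The arms also differed in how near they came to other genes. Placed without gaps, miR-135a-5p had 0 mismatches in the other Mir135a precursor, 1 mismatch at its best place in the Mir135b precursor, and at least 7 mismatches in every precursor searched outside the family. The 3p arms were farther apart: miR-135a-2-3p had 6 mismatches at its best place in Mir135a-1 and 5 in Mir135b, and miR-135a-1-3p had 7 in Mir135a-2 and 8 in Mir135b. In 141767 annotated transcripts, searched on both strands, the 3p arms of Mir135a-2 and Mir135b had an exact match in their own genes alone. Both arms of Mir135a-1 also matched Glyctk, the glycerate kinase gene that runs across this miRNA gene on the other strand.

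The genes lie on 3 chromosomes (mm10). Mir135b lies on chromosome 1 (132198088 to 132198184, plus strand, 97 bases), in an intron of 2 transcripts of Lemd1, a gene of a LEM domain protein, and of 1 transcript of the gene model AC124108.1. Mir135a-1 lies on chromosome 9 (106154124 to 106154213, plus strand, 90 bases), in an intron of the noncoding gene D030055H07Rik and, on the opposite strand, over an untranslated exon part of 2 Glyctk transcripts. Mir135a-2 lies on chromosome 10 (92072086 to 92072185, minus strand, 100 bases), in an intron of 2 transcripts of Rmst, a long noncoding RNA known from the developing midbrain.

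The libraries had 3660693 counts in pup 2 and 3216453 in pup 1 on the miRNA genes' own strand, so 1 count equalled 0.273 and 0.311 CPM (counts scaled to 1000000 per library) in these pups. Reads that fitted several places made up 35.4% of all reads in pup 2 and 35.7% in pup 1. Among markers of the labelled tissue, all 5 Hox-cluster genes and 5 of 8 measured neuronal genes reached 10 counts in each pup. Of all 1973 genes, 17.8% did. Neuronal Mir137 stood at 17125 and 15026 CPM in pup 2 and pup 1. Of the 3 neuronal genes that did not reach 10 counts in each pup, 2 were copies of Mir124a and 1 was Mir9-2, a copy of Mir9. Reads that fit several copies are left out of gene counts, so low counts of such genes do not show that their miRNAs were scarce. Markers of other tissues that the dissection could hold were summed per list. The lists held 1 gene each for endothelium, cartilage and liver, 4 for blood and 7 for epithelium. Endothelium had 26007 and 27838 CPM in pup 2 and pup 1, cartilage 3519 and 3216, blood 575 and 489.98, and epithelium 538 and 499. Most of the epithelium sum was Mir203, at 459 and 439 CPM. Muscle had 102 and 69.3, with 3 of its 4 measured genes at 0 counts, and liver had 64.2 and 104. Those 3 muscle genes, Mir1a-1, Mir133a-1 and Mir133a-2, also have gene copies, so their 0 counts do not show that muscle was absent. The part of these tissues in the levels of the miR-135 genes was not tested. In such bulk tissue fewer cells of a type and less RNA per cell cannot be told apart.

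All 3 genes were detected (at least 10 counts in both pups), as were 17.8% of all 1973 genes. Mir135b was far above its relatives. It had 16616 own-strand counts in pup 2 and 14232 in pup 1, which is 4539 CPM (exact 95% Poisson interval 4470.3 to 4609) and 4425 CPM (4352 to 4498), with a mean of 4482 CPM ± 80.8 (SD, n = 2). Mir135a-2 had 411 counts in pup 2 and 340 in pup 1, or 112 CPM (102 to 124) and 106 CPM (94.8 to 118), with a mean of 109 CPM ± 4.64. Mir135a-1 had 317 counts in pup 2 and 257 in pup 1, or 86.6 CPM (77.3 to 96.7) and 79.9 CPM (70.4 to 90.3), with a mean of 83.2 CPM ± 4.73. The order Mir135b, Mir135a-2, Mir135a-1 was the same in both pups, and the values of no gene overlapped those of another. The intervals cover counting error only, since no molecular identifiers are stated.

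**Figure D2:**
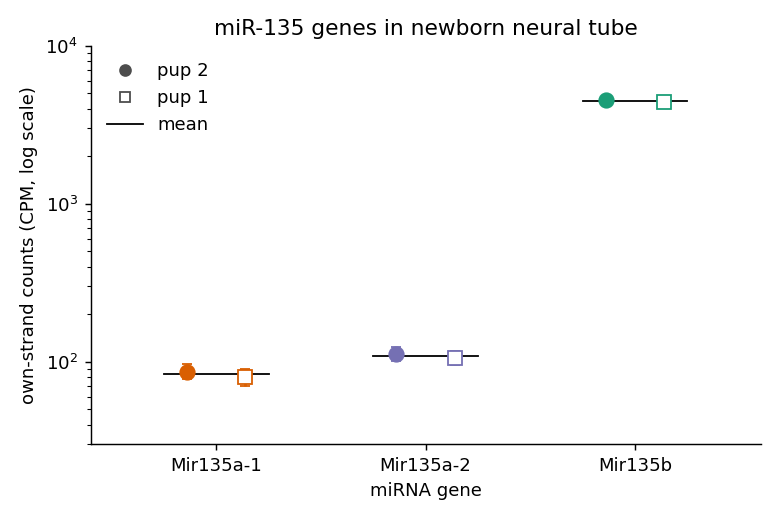
Own-strand counts of the miR-135 genes in CPM (log scale), in pup 2 (filled circles) and pup 1 (open squares), with exact 95% Poisson intervals and the mean of both pups (black line). Mir135b sits at 4539 and 4425 CPM in pup 2 and pup 1, Mir135a-2 at 112 and 106, and Mir135a-1 at 86.6 and 79.9.

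Together the family held 17344 counts in pup 2 and 14829 in pup 1, which is 0.474% and 0.461% of the own-strand counts (4674 CPM ± 90.2, SD, n = 2). Mir135b made up 95.8% of the family's counts in pup 2 (exact 95% binomial interval 95.5 to 96.1%) and 96.0% in pup 1 (95.6 to 96.3%). It had 40.4 times the counts of Mir135a-2 in pup 2 (interval 36.7 to 44.7) and 41.9 times in pup 1 (37.6 to 46.7). It had 52.4 times the counts of Mir135a-1 in pup 2 (46.9 to 58.8) and 55.4 times in pup 1 (48.9 to 62.9). On the log2(CPM + 1) scale the difference between Mir135b and Mir135a-2 was 5.35, against a limit of 0.40, the 95% range given by the SD between the pups pooled over similarly abundant genes.

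These folds compare uniquely placed reads and not the mature miRNAs. The counts of the Mir135a genes leave out reads that lie wholly within the 24-base stretch printed above, and the tables do not say how many of the 2555735 multimapping reads of pup 2 and 2268506 of pup 1 came from there. Counts are per precursor, so it is not known which arm gave the uniquely placed reads of any of the 3 genes. The levels of miR-135a-5p and of Mir135b's products therefore cannot be ranked from these tables.

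The split between the Mir135a copies was nearly the same in both pups. Mir135a-2 held 56.5% of the counts of the pair in pup 2 (411 of 728; interval 52.8 to 60.1%) and 57.0% in pup 1 (340 of 597; 52.9 to 61.0%), a mean of 56.7% ± 0.350 (SD, n = 2). Its counts were 1.30 times those of Mir135a-1 in pup 2 (interval 1.12 to 1.51) and 1.32 times in pup 1 (1.12 to 1.56). Both intervals, which hold counting error alone, lie above 1. The difference of 0.39 in log2(CPM + 1) between these genes was nevertheless within the corresponding limit of 0.46 for their class of abundance. Per 100 annotated bases of precursor, the means were 109 CPM for Mir135a-2 and 92.5 CPM for Mir135a-1, and 4621 CPM for Mir135b.

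Among the 352 detected genes Mir135b stood at rank 37 in mean CPM, Mir135a-2 at rank 207 and Mir135a-1 at rank 219. Within single pups the ranks were 39 and 36 for Mir135b in pup 2 and pup 1, 206 and 207 for Mir135a-2, and 219 and 221 for Mir135a-1. Mir135b was thus well above the median level of detected genes, 200.5 CPM, and both Mir135a genes below it. The most abundant gene, Mir10b of the Hox D cluster, had 180672 CPM ± 9672.

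**Figure D3:**
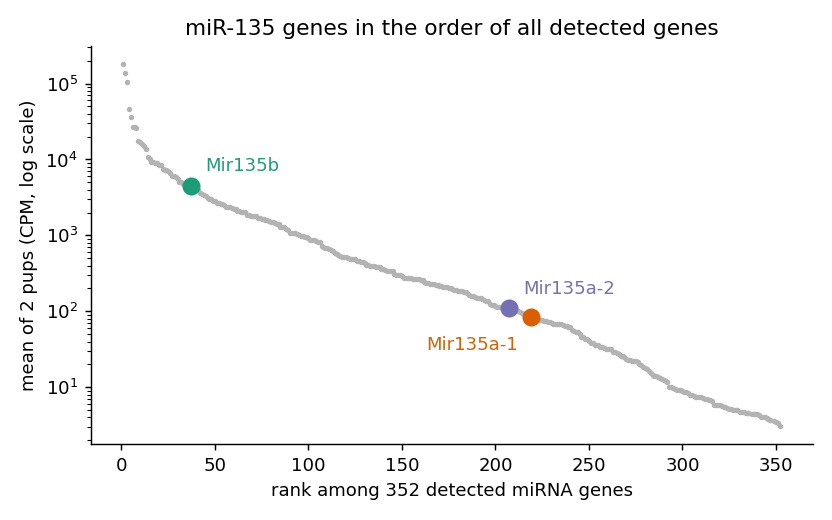
Mean CPM over both pups (log scale) of the 352 detected miRNA genes, ordered from high to low, with the miR-135 genes in colour. Mir135b stands at rank 37 and the Mir135a genes at ranks 207 and 219, with 11 genes between them.

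The genes nearest to each member in level were the 2 above and the 2 below it in mean CPM, given in the order of their distance in mean log2(CPM + 1) over the 2 pups. Next to Mir135b stood Mir125a (4454 CPM ± 324, 0.01 below it) and Mir381 (4524 CPM ± 107, 0.01 above it), then Mir21a (4637 CPM ± 517) and Mir598 (4352 CPM ± 491). Next to Mir135a-2 stood Mir20b (109 CPM ± 5.41) and Mir152 (111 CPM ± 16.6), then Mir451a (108 CPM ± 22.02) of red blood cell precursors and Mir701 (112 CPM ± 19.3). Next to Mir135a-1 stood Mir505 (83.8 CPM ± 6.33) and hepatocyte Mir122 (84.2 CPM ± 28.3), then Mir490 (79.0 CPM ± 8.25) and Mir539 (77.9 CPM ± 12.6). None of these 12 genes differed from its member beyond the limit of the pooled SD, which follows from their choice by nearness in level. In each of the 3 sets, the member had a smaller SD than its 4 neighbours. This is not particular to the family. In the classes of 88 genes of like abundance, 13 genes had a smaller log2 ratio between the pups than Mir135b. For Mir135a-2 there were 19 such genes and for Mir135a-1 24.

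Genes that make an arm identical to that of another gene were also looked at as a class, after the values of the Mir135a genes had been seen. Only genes with arms listed in RefSeq were classed, and arms not listed, such as miR-135b-5p, could not be compared. Of 87 such genes measured, 48 were detected (55.2%), with a median of 108 CPM over those detected. Of 829 genes without such a listed arm, 272 were detected (32.8%), with a median of 213 CPM. Over all 1973 genes, 17.8% were detected. Mir135a-2 (109 CPM) had 23 of the 48 above it and Mir135a-1 (83.2 CPM) had 26, so both lay near the middle of that class. The 48 include both Mir135a genes, so the median of the class is not independent of them. Mir135b (4482 CPM), itself among the 272 genes without such an arm, had 34 of them above it.

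The pups differed little in these genes. On the log2 scale, the ratio of pup 2 over pup 1 was 0.04 for Mir135b (exact 95% interval 0.0044 to 0.07), 0.09 for Mir135a-2 (-0.12 to 0.30) and 0.12 for Mir135a-1 (-0.13 to 0.36). The intervals of both Mir135a genes include 0, and that of Mir135b starts just above it. With edgeR's TMM scaling the ratio of Mir135b was -0.0042, so no direction can be given for it. None of the 3 genes passed 1.5-fold, as 11.9% of the detected genes did (42 of 352, 8.24% higher and 3.69% lower in pup 2). With 1 library per pup no test was made.

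The ratios were small also beside genes of like abundance. Over all detected genes the median size of the log2 ratio was 0.19, and 32 of 352 genes had a smaller one than Mir135b, 82 a smaller one than Mir135a-2 and 116 a smaller one than Mir135a-1. Among the 88 most abundant detected genes, which include Mir135b, the median size was 0.13 and 13 genes had a smaller ratio. In the class of 88 genes that includes both Mir135a genes (29.4 to 199 CPM), the median size was 0.22, and 19 genes had a smaller ratio than Mir135a-2 and 24 than Mir135a-1.

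**Figure D4:**
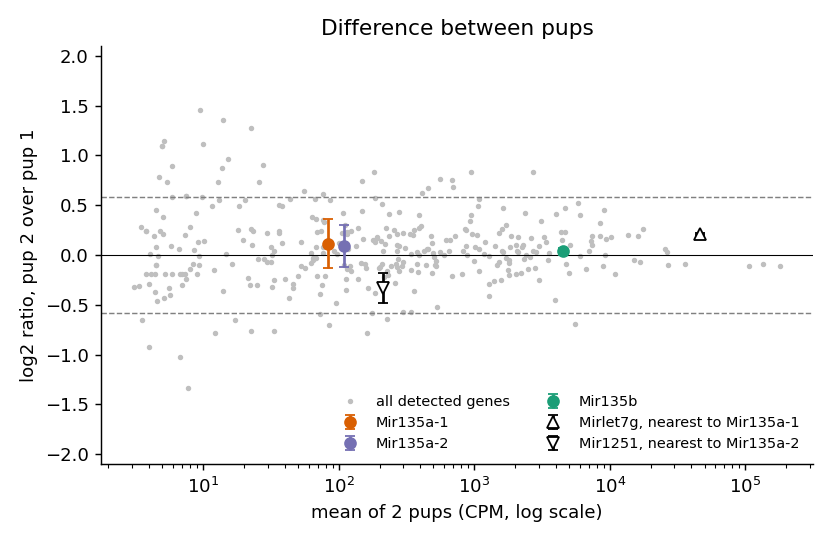
Log2 ratio of pup 2 over pup 1 against mean CPM (log scale) for the 352 detected genes (grey), with the miR-135 genes in colour and the nearest miRNA gene on the genome of each Mir135a gene as a triangle. Bars are exact 95% intervals of counting error and dashed lines mark 1.5-fold; the 3 miR-135 genes lie between 0.04 and 0.12, and Mir1251 lies at -0.33.

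The miRNA genes nearest on the genome had other levels. Mir135a-1 lies 24627 bases from Mirlet7g, a let-7 gene on the same strand (chromosome 9, 106178840 to 106178927), which stood at 49417 CPM (pup 2) and 42684 CPM (pup 1), a mean of 46050.4 CPM ± 4761 (SD, n = 2). Mirlet7g had 571 times the counts of Mir135a-1 in pup 2 and 534 times in pup 1, with intervals that overlap (511 to 639 and 473 to 606). Its log2 ratio between the pups was 0.21 (0.20 to 0.22), a value inside the wider interval of Mir135a-1.

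Mir135a-2 lies 64955 bases from Mir1251, the other miRNA gene within Rmst (chromosome 10, 92137140 to 92137223, minus strand). Mir1251 had 684 counts in pup 2 and 757 in pup 1, or 187 and 235 CPM (211 CPM ± 34.3, SD, n = 2), above Mir135a-2 in both pups. It had 1.66 times the counts of Mir135a-2 in pup 2 (interval 1.47 to 1.89) and 2.23 times in pup 1 (1.956 to 2.54), and these intervals do not overlap. The log2 ratio of Mir1251 was -0.33 (-0.48 to -0.18), and its difference from that of Mir135a-2 was -0.42. This gap lay within 0.87, the limit given by the pooled SDs between the pups, so it was larger than counting error but not larger than the spread between the pups in similarly abundant genes. The neighbour of Mir135b, the gene model Gm24273 at 699286 bases, had 0 counts in both pups, which allows up to 0.820 CPM (pup 2) or 0.933 CPM (pup 1), the value of 3 counts.

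No read was counted on the opposite strand of any of the 3 genes in either pup. Over all genes, opposite-strand counts were 81286 in pup 2 and 68949 in pup 1, against 3660693 and 3216453 on the own strand. How many other genes had none was not examined, so this is not a trait of the family. The absence of such reads covers the place where Glyctk runs against Mir135a-1, but RNA below 30 bases does not give the level of Glyctk.

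The family was set beside lists of miRNA genes with which it shares reported roles. Some list genes have copies, such as those of Mir16, Mir138 and Mir133a, and their counts also leave out reads that fit several copies. The lists therefore compare uniquely placed reads and not the mature miRNAs. The first holds miRNAs reported in the mouse to act on Runx2, the master factor of bone-forming cells. Of its 13 measured genes besides the Mir135a genes, 11 were detected, against 17.8% of all 1973 genes. The median of the 11 was 276 CPM, from Mir205 at 22.5 CPM ± 13.4 to Mir137 at 16076 CPM ± 1484. Both Mir135a genes lay below that median. Mir217, at 118 CPM ± 3.62, was the member next above Mir135a-2. Of the 11, 1 gene (Mir205, log2 ratio 1.28, on 117 counts in pup 2 and 42 in pup 1) was past 1.5-fold higher in pup 2 and 0 were lower, against 8.24% and 3.69% of all detected genes. The median log2 ratio of the 11 was 0.19, against 0.04 over all detected genes.

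The list of miRNAs reported to promote or restrain axon growth has 13 measured genes besides the family. Detected were 12 of them, against 17.8% of all 1973 genes, and the median of the 12 was 677 CPM. In mean CPM, Mir135b (4482 CPM ± 80.8) stood next to Mir21a (4637 CPM ± 517), known to promote neurite outgrowth in sensory neurons of the rat, and did not differ from it beyond the pooled spread; Mir21a was the higher in pup 2 (5003 CPM) and the lower in pup 1 (4271 CPM). Mir135b was above Mir182 (2695 CPM ± 1072) and Mir431 (2333 CPM ± 40.2). Mir132, a neuronal activity miRNA, had 1602 CPM ± 205, and the pair Mir138-1 and Mir138-2, which restrains axon growth, had 1634 CPM ± 377 and 1084 CPM ± 294. Of the 12, 1 gene was past 1.5-fold higher in pup 2 (Mir182, log2 ratio 0.83) and 1 lower (Mir30b, -0.64), against 8.24% and 3.69% of all detected genes. The median log2 ratio of the 12 was 0.23, against 0.04 over all detected genes.

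The list for dopamine and serotonin neurons of the brainstem has 10 measured genes besides the Mir135a genes. Detected were 9 of them, against 17.8% of all 1973 genes, and the median of the 9 was 556 CPM. Mir16-1 (1704 CPM ± 249.7) and Mir16-2 (394 CPM ± 77.7) make miR-16, which like miR-135 acts on the serotonin transporter. Reads that fit both Mir16 genes are not in these values, which thus do not give the level of miR-16. Mir132 (1602 CPM ± 205) and Mir7b (1427 CPM ± 66.5) were also above the Mir135a genes. Mir34b (25.5 CPM ± 0.476) was the detected gene below them, and Mir133b, known from midbrain dopamine neurons, was below the count minimum, at 3.55 CPM (pup 2) and 1.24 CPM (pup 1). Of the 9, 1 gene was past 1.5-fold (Mir96, higher in pup 2, log2 ratio 0.76), near the 11.9% of all detected genes. The median log2 ratio of the 9 was 0.26, against 0.04 over all detected genes.

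**Figure D5:**
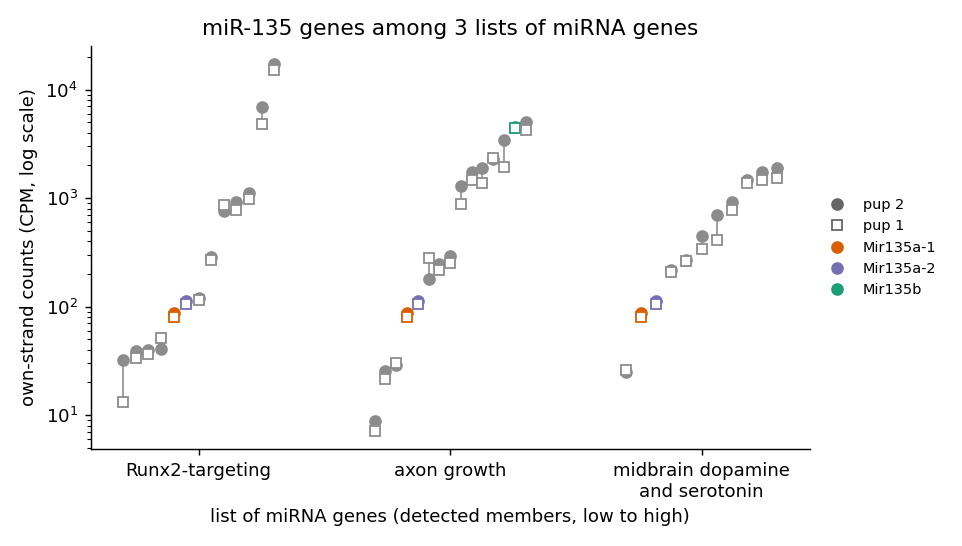
Own-strand counts in CPM (log scale) of the detected genes of 3 lists, ordered from low to high within each list, in pup 2 (filled circles) and pup 1 (open squares), with the miR-135 genes in colour. Mir135b is second in the axon growth list by the mean of both pups, below Mir21a in pup 2 and above it in pup 1, and the Mir135a genes lie in the lower part of all 3 lists.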

How the data were processed

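Each deposited table gives raw read counts for every miRNA gene in 3 columns, for both strands together, for the gene's own strand and for the other one. The text that came with the tables names mm10 as the genome and GENCODE M4 as the annotation; which aligner and counter the authors ran is not given in the sources used here. Read classes that name no gene stayed out of the totals: unmapped reads took 11.0% of all reads in pup 2 and 10.8% in pup 1, multimapping reads 35.4% and 35.7%, and reads outside miRNA genes 1.69% and 1.89%.

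Own-strand counts were used, scaled to 1000000 per library (CPM). Symbols and positions came from GENCODE M21 on the same build. Ensembl identifiers without version matched for 1894 of the 1973 genes, and no unmatched gene had more than 2 counts. Log2 ratios had 0.5 added to each count. Pooled SDs were taken on log2(CPM + 1) within 4 classes of abundance, and the limit between genes was the 95% range of a normal distribution with that SD. Sequences came from RefSeq (GRCm38.p6), and all 3 genes matched by symbol; no genome was searched. Named were the members, list genes, the 2 genes above and below each member in level, the nearest miRNA gene, and the most abundant gene. The members and lists were chosen with earlier results of these data known. The computation of the ratio, its interval and the pooled SD was tested on simulated data. The simulated counts held counting error alone, so this does not show that the intervals cover the spread between pups.

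Alternatives were edgeR TMM and DESeq2 scaling, either-strand counts, other totals, length, count minimums, folds and stretch lengths, and leaving out each pup. Intervals and ratios were computed with scipy 1.17.1 and numpy 2.4.6 in Python 3.11.15, tables with pandas 2.3.3 and plots with matplotlib 3.10.9; scaling factors came from edgeR 4.0.16 and, as the other choice, DESeq2 1.42.0, run in R 4.3.3.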

Additional observations from a re-analysis of the deposited data

How the results depend on the processing

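Of 71 values under alternatives, 47 stayed within the spread, their interval or, for counts of genes, 1.5 times the value reported, and 24 moved. Many of the 47 could move little or not at all by construction, so their number does not measure robustness. These include values without 1 pup, either-strand folds and shares, and mean CPM with TMM or DESeq2 scaling. None of the ratios was past 1.5-fold under any scaling. The detection of all 3 genes and their ranks did not change with the count minimum. With all reads as the total, levels were 2270.3 CPM (Mir135b), 55.2 (Mir135a-2), 42.2 (Mir135a-1) and 2368 (family); without Mir10b they were 5470.0, 133, 102 and 5705, both by construction. Either-strand counts gave 4386 CPM for Mir135b and 4574 for the family, by construction of the larger total. Per 100 bases of precursor, Mir135b had 4621 CPM, Mir135a-1 92.5 and the family 4822, Mir135b lay 42.4-fold above Mir135a-2 and Mir135a-2 1.18-fold above Mir135a-1. The log2 ratio of Mir135b, 0.04, was -0.0042 with TMM and -0.0046 with DESeq2 scaling, which moved all ratios down alike. With a minimum of 1, 5 or 50 counts in both pups, 553, 386 or 279 genes were detected, by construction. Past 2-fold lay 9 genes, and 99 past a fold below 1.5, by construction. Of stretches of 20 or 18 bases, 92.96% or 90.4% in Mir135a-1 and 93.8% or 91.6% in Mir135a-2 were in no other precursor. Leaving out 1 pup cannot move a mean of 2 by more than its SD: Mir135b ranged from 4425 to 4539 CPM, Mir135a-2 from 106 to 112, Mir135a-1 from 79.9 to 86.6, the family from 4610.4 to 4738, and the share of Mir135b from 95.8% to 96.0%. No paired analysis was possible because there was 1 group. Depth limits the Mir135a genes, whose ratio intervals span -0.13 to 0.36.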
